A study of Mus musculus with 18 samples.

Results

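Paw fibroblasts of arthritic mice that had received osteopontin in culture were compared, gene by gene, with unstimulated paw fibroblasts of naive mice. The comparison used 6 of the 18 libraries of the series, 3 in each group, and covered all 15072 genes of 32285 in the table that passed a filter on low counts. The naive group is wild-type (WT), had no arthritis and is labelled with no stimulation. The OPN-treated arthritic group, also WT, came from mice with K/BxN serum-induced arthritis (serum-transfer-induced arthritis, STIA), and its sorted synovial fibroblasts then received 50 ng/mL osteopontin (OPN) for 3 days. Unstimulated STIA cells and naive cells with OPN, 3 libraries each, are given beside it, since arthritis and OPN cannot be told apart from the main pair of groups alone. The labels do not give the age of the mice, the sort gates, how long unstimulated cells were cultured or whether replicates were separate mice or cultures. The p-values below therefore measure the spread between these libraries, which may be technical.

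Synovial fibroblasts line the joint cavity and fill the tissue below it. They secrete lubricating proteins and collagen, and in arthritis they make matrix-degrading enzymes and signals that hold leukocytes in the joint. In the serum-transfer model, antibodies against glucose-6-phosphate isomerase in K/BxN serum start joint inflammation in mice that are otherwise healthy. Osteopontin, encoded by Spp1, is a secreted phosphoprotein of bone and inflamed tissue that binds integrins, mainly those with the alpha-v chain, and CD44.

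Each library held between 27527043 and 40357342 counts, and the shares of mitochondrially encoded counts in the main groups ran from 0.374% to 0.666% in naive and from 0.468% to 0.627% in OPN-treated STIA libraries. All 16 pan-fibroblast markers were tested and expressed at 1 CPM or more (CPM, the count scaled to a common library size). Their summed level was 71091 to 80444 CPM in naive libraries and 61344 to 65865 CPM in OPN-treated STIA libraries. Of these 16, Pdpn and Thy1 rose while Col1a2 and Pdgfra fell. Of 15 macrophage markers 5 passed the filter, and the sum over all 15 was 14.3 to 15.5 CPM in naive and 14.2 to 14.4 CPM in OPN-treated STIA libraries, with C1qb and Fcgr1 at 0 in both groups. The 14 neutrophil and lymphocyte markers together stayed under 1 CPM in all 6 libraries. Of 7 tested endothelial markers Tek and Erg fell, of 5 osteoclast markers Mmp9 rose, and of 2 keratinocyte markers Trp63 fell. Of 7 Schwann cell markers Ncam1 rose and S100b fell, and the sum of the list was 133 to 143 CPM in naive and 169 to 178 CPM in OPN-treated STIA libraries. Xist RNA was present in all 12 libraries of the 4 groups, and the Y-linked genes Ddx3y and Eif2s3y had no count in any of them. The hindlimb gene Tbx4 was at 40.8 ± 2.42 CPM (mean ± SD, n = 3, as in all values of this form) in naive cells and 31.7 ± 1.99 CPM in OPN-treated STIA cells, and the forelimb gene Tbx5 stayed under 1 CPM in both.

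On a principal component plot of the 4 groups, the first component held 40.8% of the variance and the second 19.4%. The 3 OPN-treated STIA libraries lay at 19.4 to 20.7 on the first component and the 3 naive libraries at -16.3 to -14.0. Unstimulated STIA libraries lay farther out, at 31.2 to 35.4, and naive cells with OPN lay on the other side of the naive cells, at -46.6 to -32.4. The root-mean-square distance between group means over all tested genes was 0.40 log2 units between naive and OPN-treated STIA cells, and 0.52 between naive and unstimulated STIA cells.

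**Figure D1:**
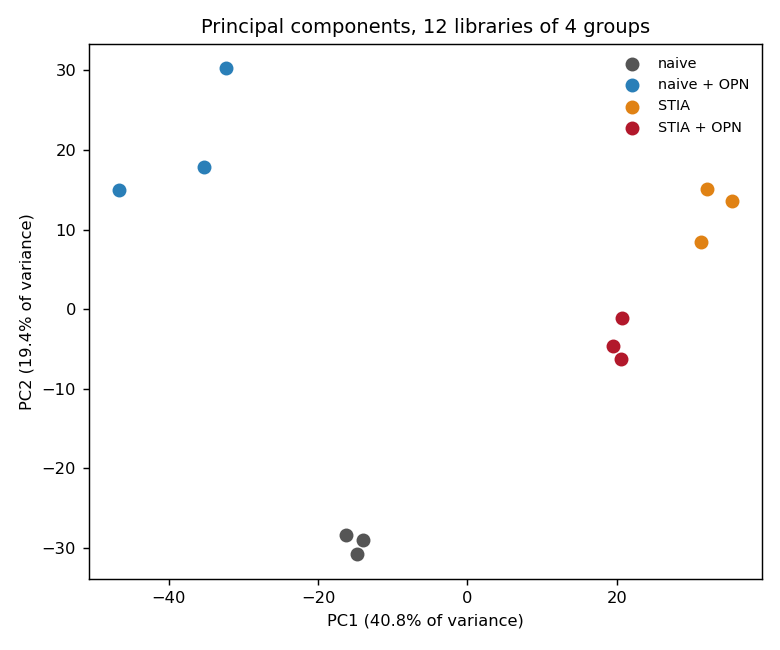
First against second principal component of log2 CPM for the 12 libraries of 4 groups, 1 point per library, with the share of variance on each axis (40.8% and 19.4%). The 3 OPN-treated STIA libraries lie between the naive and the unstimulated STIA libraries on the horizontal axis and naive cells with OPN lie apart on the left.

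In the comparison of OPN-treated STIA with naive cells, 3343 of 15072 genes (22.2%) passed edgeR's quasi-likelihood test at a Benjamini-Hochberg adjusted p below 0.05. Of these, 1762 rose (11.7%) and 1581 fell (10.5%). Most changes were small, since 2423 of the called genes (72.5%) differed by less than 1.5-fold. At 2-fold or more, 153 genes rose (1.02%) and 242 fell (1.61%). At 4-fold or more, 20 rose and 35 fell. The libraries of the groups did not overlap for 6013 genes (39.9%). The median log2 fold change over all tested genes was 0.0015, so changes are read against a centre near 0.

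**Figure D2:**
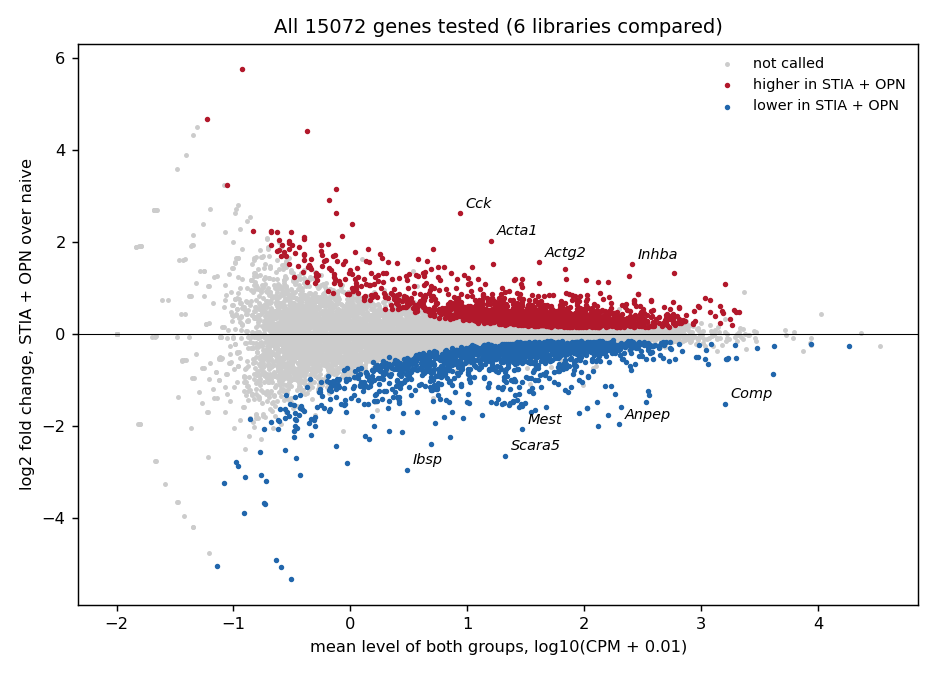
Log2 fold change of OPN-treated STIA over naive cells (vertical) against the mean level of both groups as log10(CPM + 0.01) (horizontal) for the 15072 tested genes, 1 point per gene, with called genes in colour. Called genes lie on both sides of 0, 1762 above and 1581 below.

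Genes of the contractile apparatus had the largest median rise of the 24 pathway lists. Of 22 contractile and actin genes, all tested, 19 rose, beside 11.7% of all genes, and Tagln, Des and Smtn did not pass the test. The median log2 fold change of the list was 0.75, beside 0.0015 for all tested genes. In unstimulated STIA cells 21 of the 22 rose against naive cells, beside 18.6% of all genes. OPN in naive cells raised 4 of the 22, near the 15.2% of all genes raised there. In bulk RNA, more cells of a contractile type and more RNA per cell cannot be told apart.

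The 3 promoters below carry a CArG box, the site bound by serum response factor, which drives many actin and smooth muscle genes. They are shown as examples that hold a match. Acta1 had the second largest rise among the genes named below, and Cnn2 and Myl9 are members of the contractile list. Each line holds the 250 bases before the RefSeq gene start (GRCm38.p6), 5′ to 3′ on the gene's strand, with the CArG box in capitals. Acta1 lies at chr8:123894776-123895025 on the minus strand, Cnn2 at chr10:79988350-79988599 on the plus strand and Myl9 at chr2:156775214-156775463 on the plus strand.
Acta1: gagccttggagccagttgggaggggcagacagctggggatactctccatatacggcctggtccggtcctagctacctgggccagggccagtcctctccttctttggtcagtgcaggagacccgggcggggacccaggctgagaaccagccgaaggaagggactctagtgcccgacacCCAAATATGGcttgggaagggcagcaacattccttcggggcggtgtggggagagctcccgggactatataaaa
Cnn2: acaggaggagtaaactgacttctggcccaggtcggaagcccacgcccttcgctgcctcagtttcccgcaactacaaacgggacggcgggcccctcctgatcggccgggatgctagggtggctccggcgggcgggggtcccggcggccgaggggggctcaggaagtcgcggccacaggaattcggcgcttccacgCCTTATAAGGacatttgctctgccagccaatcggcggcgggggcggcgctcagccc
Myl9: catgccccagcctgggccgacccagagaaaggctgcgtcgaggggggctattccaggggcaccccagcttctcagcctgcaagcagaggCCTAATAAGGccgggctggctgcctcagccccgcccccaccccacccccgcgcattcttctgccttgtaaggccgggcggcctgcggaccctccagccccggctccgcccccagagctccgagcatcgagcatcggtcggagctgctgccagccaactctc

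A promoter was matched for 18 of the 22 contractile genes, and 3 of them (Cnn2, Myl9 and Vcl) held a CArG box on either strand, beside 439 of 27025 promoters of all symbols (1.62%). Of the 28 genes named by size of rise or fall in the main comparison, 22 had a matched promoter, and Acta1 alone held a CArG box. The box of Acta1 spans bases 73 to 64 before the start, that of Cnn2 bases 56 to 47 and that of Myl9 bases 161 to 152. The CArG box and the E2F site shown further down are textbook motifs for these lists. Other motifs and lists were also looked at and are not shown, so the counts are a description and a match is not a bound site.

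Acta1, the skeletal muscle alpha-actin (chr8:123891769-123894751), is listed with the skeletal muscle markers and not in the contractile list. It was at 5.52, 7.58 and 5.80 CPM in the 3 naive libraries and at 27.0, 23.2 and 26.8 CPM in the 3 OPN-treated STIA libraries. The log2 fold change was 2.03 ± 0.34 (SE; edgeR adjusted p = 0.00109). Actg2, the enteric smooth muscle gamma-actin, was at 20.5, 21.4 and 20.8 CPM in naive and 60.3, 59.1 and 65.3 CPM in OPN-treated STIA libraries, a log2 fold change of 1.56 ± 0.25 (edgeR adjusted p = 7.55e-04). Acta2, the alpha-smooth muscle actin that marks myofibroblasts, rose from 1024 ± 77.8 CPM to 2189 ± 55.9 CPM (log2 fold change 1.10 ± 0.29, edgeR adjusted p = 0.0161). The actin genes share near-identical coding sequence, and the labels do not say how reads mapping to several genes were counted, so the split among Acta1, Acta2 and Actg2 is uncertain.

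Cnn1, which encodes calponin of smooth muscle thin filaments, was at 34.5, 42.7 and 34.3 CPM in naive and 101, 93.0 and 103 CPM in OPN-treated STIA libraries. Its log2 fold change was 1.41 ± 0.33 (edgeR adjusted p = 0.00856). Lmod1, a leiomodin that nucleates actin filaments, rose from 8.51 ± 0.590 CPM to 24.4 ± 0.839 CPM, and Ccn2, a matricellular protein induced by stretch and TGF-beta, rose from 337 ± 12.4 CPM to 842 ± 23.6 CPM. At the other end of the list, the non-muscle myosin heavy chains Myh9 and Myh10 rose by log2 fold changes of 0.33 ± 0.064 and 0.22 ± 0.059. Tagln, a smooth muscle actin-binding protein, stood at 2.44 ± 0.936 CPM and 5.01 ± 0.0705 CPM, which did not pass the test (edgeR adjusted p = 0.0578). Exon overlap with other genes was checked for genes named by size of change or interaction, and not for other list members such as Tagln. Its level is uncertain in that respect.

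Markers of muscle cells are given beside these values, and their part in the result was not tested. Of 7 tested pericyte and smooth muscle markers, Myh11 and Mcam rose. The summed level of the list was 311 to 329 CPM in naive and 312 to 355 CPM in OPN-treated STIA libraries, and the pericyte gene Higd1b was at 0 in both groups. Of 8 skeletal muscle markers 3 were tested, and Acta1 alone rose. The sum of the 8 was 7.80 to 10.03 CPM in naive and 25.3 to 29.4 CPM in OPN-treated STIA libraries, and the satellite cell gene Pax7 and the fast myosin gene Myh4 had no count in the latter.

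The largest rise among all named genes was that of Cck (chr9:121489824-121495694), which encodes the peptide hormone cholecystokinin. It was at 2.37, 2.06 and 2.74 CPM in naive and at 13.9, 13.7 and 16.9 CPM in OPN-treated STIA libraries. The log2 fold change was 2.63 ± 0.28 (edgeR adjusted p = 1.88e-05). Inhba, which encodes the activin A subunit, started from a higher level, at 136, 120.2 and 141 CPM, and reached 325, 376 and 439 CPM. Its log2 fold change was 1.52 ± 0.10 (edgeR adjusted p = 8.60e-09). Ptgs2, the inducible cyclooxygenase that makes prostaglandin precursors, was at 145, 142 and 141 CPM in naive and 319.5, 341 and 363 CPM in OPN-treated STIA libraries, a log2 fold change of 1.26 ± 0.19 (edgeR adjusted p = 4.83e-04). The antisense transcript next to it, Ptgs2os2, rose as well, from 2.42 ± 0.281 CPM to 6.18 ± 0.379 CPM.

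Further named rises were of genes at low level in naive cells. Htr1b, a serotonin receptor, rose from 2.20 ± 0.616 CPM to 7.97 ± 0.911 CPM. Shox2, a homeobox gene of limb patterning, rose from 3.36 ± 0.831 CPM to 9.27 ± 1.15 CPM. F11r, the junctional adhesion molecule A, rose from 2.65 ± 0.00879 CPM to 7.11 ± 0.732 CPM. Cmah, which hydroxylates sialic acid, rose from 2.98 ± 0.236 CPM to 8.24 ± 0.355 CPM, and Tmem200a, a membrane protein, from 2.24 ± 0.743 CPM to 6.77 ± 0.700 CPM. Htr1b, Shox2 and Tmem200a have exons that overlap a gene on the opposite strand, and no label gives the strandedness of the libraries, so reads of either partner cannot be told apart.

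**Figure D3:**
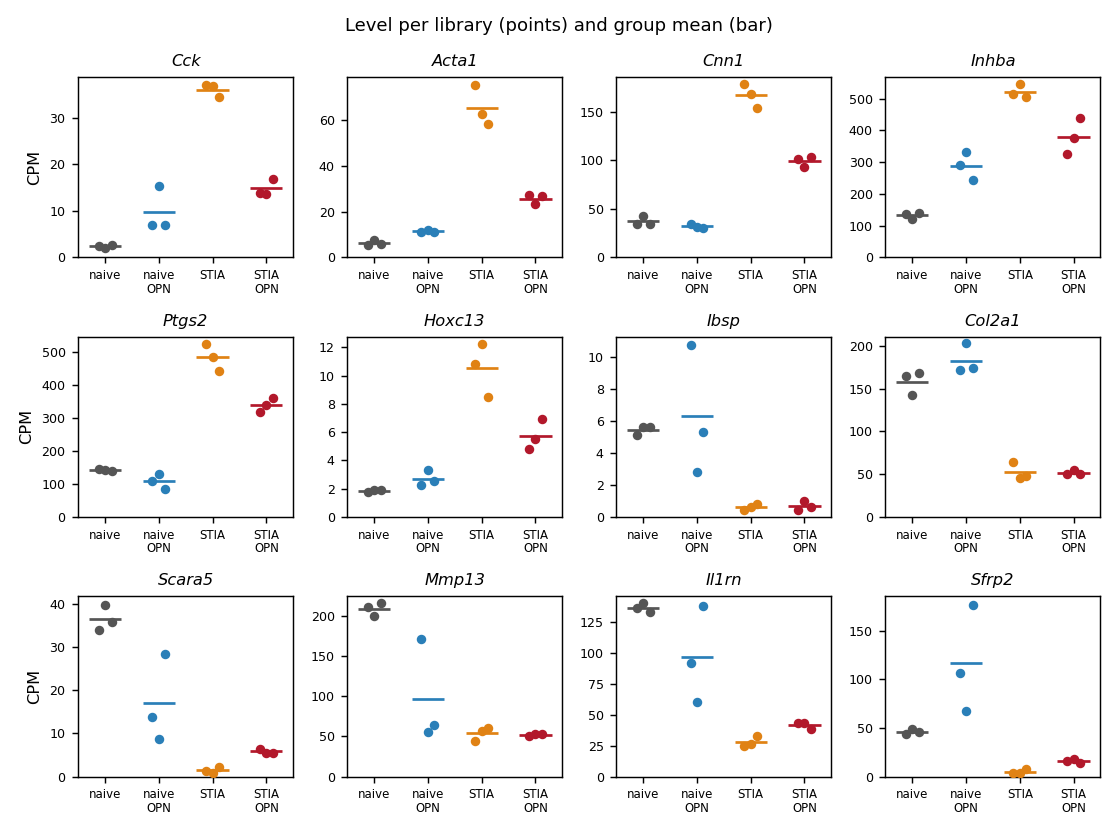
Level in CPM (linear axes from 0) of 12 named genes in the 3 naive and 3 OPN-treated STIA libraries, 1 point per library, with unstimulated STIA cells and naive cells with OPN beside them, and a bar at each group mean. Genes such as Cck and Inhba are higher in all 3 OPN-treated STIA libraries than in all 3 naive ones, and Ibsp, Col2a1 and Scara5 are lower.

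Genes of DNA replication and mitosis rose almost throughout, by small amounts. Of 32 listed and tested genes 30 rose, beside 11.7% of all genes, and Ccnb2 and Kif20a did not pass the test. The median log2 fold change of the list was 0.43. The largest were Ccne2, a cyclin of entry into DNA synthesis, from 12.2, 9.99 and 12.2 CPM to 18.2, 20.3 and 24.3 CPM (log2 fold change 0.87 ± 0.15, edgeR adjusted p = 3.60e-04), and Rrm2, the ribonucleotide reductase subunit that limits nucleotide supply, from 122, 132 and 137 CPM to 218, 199.6 and 210.4 CPM (log2 fold change 0.68 ± 0.21, edgeR adjusted p = 0.0363). Mcm3, a subunit of the replicative helicase, rose from 51.6 ± 3.72 CPM to 78.0 ± 2.30 CPM, and Cdc6, which loads that helicase, from 9.99 ± 1.07 CPM to 15.0 ± 0.922 CPM. The smallest called rises included Mcm7, another helicase subunit, at 0.28 ± 0.067 on the log2 scale, and E2f1, at 0.30 ± 0.075. In unstimulated STIA cells all 32 rose against naive cells, beside 18.6% of all genes. OPN in naive cells raised 3 and lowered 9 of the 32, beside 15.2% and 16.5% of all genes.

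E2F sites, bound by the E2F factors that switch on replication genes, are shown for both of the helicase-related genes just named that carry them. Capitals mark the site, one of TTTGGCGC, TTTCCCGC, TTTGCCGC or TTTCGCGC or its reverse complement, searched on both strands in the same 250-base windows. Cdc6 lies at chr11:98907901-98908150 on the plus strand and Mcm7 at chr5:138171884-138172133 on the minus strand (GRCm38.p6).
Cdc6: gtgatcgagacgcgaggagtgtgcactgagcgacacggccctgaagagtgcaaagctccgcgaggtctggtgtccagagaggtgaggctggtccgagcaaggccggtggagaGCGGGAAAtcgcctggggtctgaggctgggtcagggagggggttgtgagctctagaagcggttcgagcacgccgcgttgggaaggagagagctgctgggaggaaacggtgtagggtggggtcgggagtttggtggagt
Mcm7: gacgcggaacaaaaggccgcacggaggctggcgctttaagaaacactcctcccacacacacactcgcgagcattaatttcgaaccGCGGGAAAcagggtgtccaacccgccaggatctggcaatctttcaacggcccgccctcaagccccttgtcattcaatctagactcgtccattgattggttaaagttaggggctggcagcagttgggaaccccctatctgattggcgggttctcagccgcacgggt

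A promoter was matched for 26 of the 32 genes, and 5 (Cdc6, Cdk1, Mcm5, Mcm6 and Mcm7) held such a site, beside 583 of 27025 promoters of all symbols (2.16%). The site spans bases 138 to 131 before the start in Cdc6 and bases 165 to 158 in Mcm7.

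Of 22 feedback genes and targets of the ERK kinase pathway, 13 rose, beside 11.7% of all genes. Dusp4, a nuclear phosphatase that switches ERK off, was at 5.49, 5.63 and 6.64 CPM in naive and 15.3, 15.7 and 17.4 CPM in OPN-treated STIA libraries (log2 fold change 1.45 ± 0.15, edgeR adjusted p = 1.56e-06). Etv4, an ETS factor induced by FGF signals, rose from 7.54 ± 0.777 CPM to 17.2 ± 0.579 CPM, Ereg, an EGF receptor ligand, from 13.1 ± 1.11 CPM to 26.2 ± 3.53 CPM, and Spry4, a feedback inhibitor, from 3.85 ± 0.365 CPM to 7.58 ± 1.13 CPM. Among 13 tested FGF ligands and receptors, Fgf2 and Fgf5 rose and Fgfrl1 and Fgfr2 fell, shares near the 11.7% and 10.5% of all genes. Fgf2 rose from 67.6 ± 4.69 CPM to 112 ± 11.6 CPM, and Fgfr2, a receptor of connective and epithelial tissue, fell from 66.2 ± 2.65 CPM to 33.9 ± 1.69 CPM.

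Several receptor chains of osteopontin rose, and its own gene did not pass the test. Spp1 was at 1423, 1470.0 and 1373 CPM in naive and 1847, 1762 and 1720.0 CPM in OPN-treated STIA libraries (log2 fold change 0.32 ± 0.15, edgeR adjusted p = 0.127). Of the 12 listed genes, all tested, 6 rose and Itgb5 fell, beside 11.7% and 10.5% of all genes. Cd44, the hyaluronan receptor, was at 212, 184 and 215 CPM in naive and 360.2, 356 and 398 CPM in OPN-treated STIA libraries, a log2 fold change of 0.87 ± 0.11 (edgeR adjusted p = 3.65e-05). Itga5, the fibronectin receptor chain, rose from 441 ± 13.9 CPM to 718 ± 22.7 CPM and Itgav, the alpha-v chain, from 175 ± 18.6 CPM to 277 ± 29.7 CPM. Their common partner Itgb1 rose from 1129 ± 33.0 CPM to 1494 ± 26.9 CPM, and Itgb3, a partner of alpha-v, from 28.6 ± 0.589 CPM to 47.3 ± 1.52 CPM. Itga8, at the lowest level of the called chains, rose from 1.54 ± 0.146 CPM to 3.60 ± 0.283 CPM. Itgb5 fell by a small amount, with a log2 fold change of -0.17 ± 0.057 (edgeR adjusted p = 0.0352). Itga9 and Itga4 stood at log2 fold changes of 0.11 ± 0.094 and 0.43 ± 0.26, and Itgb6 and Itgb8 at 0.26 ± 0.73 and -0.26 ± 0.15, and none of these passed the test. In unstimulated STIA cells 7 of the 12 rose and 2 fell against naive cells, beside 18.6% and 18.2% of all genes. OPN in naive cells raised 5 and lowered 3, beside 15.2% and 16.5% of all genes.

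Of 23 cholesterol synthesis genes 11 rose, beside 11.7% of all genes, with a median log2 fold change of 0.21. Msmo1, a sterol oxidase of the pathway, rose from 80.2 ± 5.28 CPM to 108 ± 3.56 CPM, and Hsd17b7, a sterol reductase, from 54.4 ± 4.11 CPM to 77.2 ± 5.25 CPM. Without naive replicate 2 the number of risen members dropped to 6. In unstimulated STIA cells 16 of the 23 rose against naive cells, beside 18.6% of all genes. OPN in naive cells raised 10 and lowered 1, beside 15.2% and 16.5% of all genes.

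Most genes of cartilage and bone fell. Of 22 tested members 13 fell, beside 10.5% of all genes, and Col10a1, the collagen of hypertrophic cartilage, rose, with a median log2 fold change of -0.81. Ibsp, bone sialoprotein (chr5:104299171-104311469), was at 5.11, 5.60 and 5.63 CPM in naive and at 0.440, 0.978 and 0.628 CPM in OPN-treated STIA libraries, the largest named fall, with a log2 fold change of -2.95 ± 0.44 (edgeR adjusted p = 1.59e-04). Col2a1, the main collagen of cartilage, was at 165, 143 and 168 CPM and 50.6, 54.6 and 50.4 CPM, a log2 fold change of -1.61 ± 0.25 (edgeR adjusted p = 7.27e-04). Every treated library lay below every naive library for Col2a1, and for Ibsp, as for all genes named by size of change, the naming rule required it. Alpl, the alkaline phosphatase of mineralising cells, fell from 23.4 ± 1.74 CPM to 8.31 ± 1.39 CPM, and Sox9, the master factor of cartilage, from 74.3 ± 3.40 CPM to 45.1 ± 2.93 CPM. OPN in naive cells raised 8 of these 22 genes and lowered 2, beside 15.2% and 16.5% of all genes. In unstimulated STIA cells 1 rose and 13 fell against naive cells, beside 18.6% and 18.2% of all genes.

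The structural matrix list moved both ways, with 9 of 41 members higher and 8 lower, beside 11.7% and 10.5% of all genes. Comp, cartilage oligomeric matrix protein of tendon and cartilage, was at 2212, 2504 and 2369 CPM in naive and 817, 851 and 817 CPM in OPN-treated STIA libraries (log2 fold change -1.51 ± 0.14, edgeR adjusted p = 1.46e-06). The small leucine-rich proteoglycans Omd, Ogn and Aspn also fell, Omd from 9.79 ± 1.26 CPM to 2.81 ± 0.205 CPM, Ogn from 206 ± 31.3 CPM to 93.6 ± 8.55 CPM and Aspn from 120.4 ± 24.1 CPM to 60.4 ± 5.76 CPM. Rises included the basement membrane collagen Col4a1, from 803 ± 30.2 CPM to 1374 ± 54.8 CPM, tenascin C (Tnc), from 882 ± 36.3 CPM to 1483 ± 73.4 CPM, and Loxl2, a collagen crosslinking enzyme, from 281 ± 7.60 CPM to 461 ± 19.3 CPM. Among 28 matrix-degrading enzymes and inhibitors 4 rose and 6 fell, beside 11.7% and 10.5% of all genes. The share that rose is close to that of all genes, and the share that fell is above it. The largest called rise of this list was 1.57 on the log2 scale. Mmp13, the collagenase of cartilage, was at 211, 199 and 215 CPM in naive and 50.3, 53.5 and 53.1 CPM in OPN-treated STIA libraries (log2 fold change -2.00 ± 0.33, edgeR adjusted p = 0.0011), while Adam19, a membrane protease, rose from 108 ± 6.77 CPM to 183 ± 14.6 CPM.

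Genes of immune defence made by fibroblasts fell more often than they rose. Of 14 complement genes 7 fell and 2 rose, of 26 interferon response and antigen presentation genes 8 fell with no called rise, and of 21 NF-kappaB targets and acute-phase genes 8 fell and 2 rose, beside 10.5% of all genes lower and 11.7% higher. C3, the central complement component, fell from 36.2 ± 3.68 CPM to 13.3 ± 1.14 CPM, and C4b, which acts upstream of it, from 43.9 ± 4.42 CPM to 14.8 ± 2.08 CPM. The largest called change among the complement genes was a rise, with a log2 fold change of 2.24, beside -1.56 for the largest fall, that of C4b. Serping1, the C1 inhibitor, fell from 95.3 ± 5.16 CPM to 41.0 ± 2.92 CPM. The class I transporter Tap1 fell from 25.4 ± 0.418 CPM to 17.3 ± 0.734 CPM. Il1rn, the interleukin-1 receptor antagonist, was at 136, 140.3 and 134 CPM in naive and 43.8, 43.2 and 38.5 CPM in OPN-treated STIA libraries, a log2 fold change of -1.71 ± 0.25 (edgeR adjusted p = 3.80e-04). Ptgs2, described above, is one of the risen NF-kappaB targets and goes against the direction of most others.

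Of 21 cytokines and chemokines 4 were called, fewer than the 22.2% of all genes would give, so the count says nothing particular of the list. Il11, Csf1 and Lif rose and Cxcl12 fell. Csf1, the growth factor of macrophages, was the most abundant of them and rose from 1250.5 ± 14.8 CPM to 1770.2 ± 42.8 CPM, while Cxcl12, a chemokine of perivascular stroma, fell from 305 ± 13.6 CPM to 188 ± 5.66 CPM.

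Markers of fibroblast position moved unevenly. Of 23 genes of sublining and universal fibroblasts 8 fell and 2 rose, and of 11 tested lining genes 4 rose and 4 fell. Of all genes 10.5% fell and 11.7% rose. Prg4, the lubricin of the lining, fell from 2350.3 ± 161 CPM to 1629 ± 85.4 CPM, and Hbegf, an EGF receptor ligand, rose from 38.5 ± 1.05 CPM to 69.8 ± 4.83 CPM. Sfrp2, a Wnt modulator of sublining cells whose exons overlap a gene on the opposite strand, was at 43.3, 49.1 and 45.8 CPM in naive and 16.1, 18.5 and 14.4 CPM in OPN-treated STIA libraries (log2 fold change -1.49 ± 0.32, edgeR adjusted p = 0.00529). Thy1, the sublining surface marker, rose from 578 ± 35.1 CPM to 719.7 ± 20.8 CPM.

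Scara5, a ferritin receptor of stromal progenitors, was at 33.9, 39.8 and 35.9 CPM in naive and at 6.49, 5.50 and 5.52 CPM in OPN-treated STIA libraries, a log2 fold change of -2.65 ± 0.37 (edgeR adjusted p = 2.93e-04). The ferrireductase Steap4 fell with it, from 8.13 ± 1.17 CPM to 1.56 ± 0.306 CPM. Kng1, a kininogen, fell from 11.6 ± 0.576 CPM to 2.45 ± 0.814 CPM, and Anpep, the aminopeptidase CD13, from 316 ± 16.6 CPM to 81.4 ± 6.89 CPM. Mest, an imprinted gene of mesoderm, fell from 47.1 ± 1.66 CPM to 11.3 ± 1.38 CPM, and Cdsn, corneodesmosin, from 246 ± 9.25 CPM to 72.7 ± 3.50 CPM. The other named falls were Ppp1r3c, Shank1, Aspg and Tspan13, with log2 fold changes of -1.94 ± 0.27, -1.83 ± 0.17, -1.76 ± 0.23 and -1.70 ± 0.25. Mest and Shank1 overlap exons of a gene on the opposite strand.

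**Figure D4:**
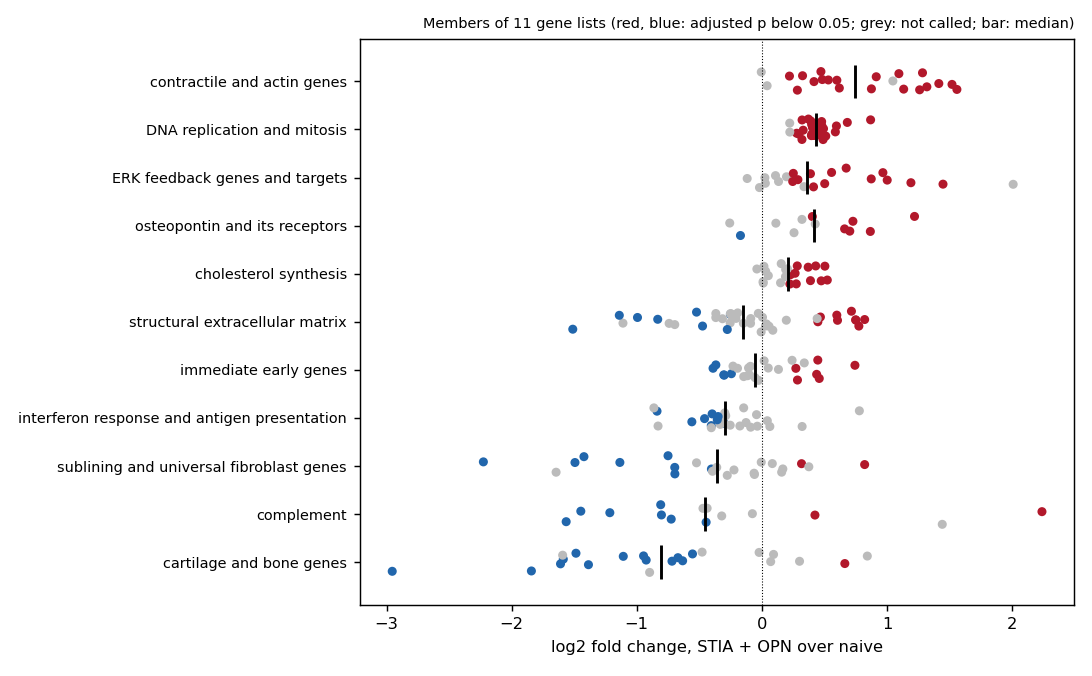
Log2 fold change of OPN-treated STIA over naive cells for the tested members of 11 gene lists, 1 point per gene, red for called higher, blue for called lower and grey for not called, with the list median as a bar. The contractile and the replication lists lie mostly above 0, with 19 of 22 and 30 of 32 members called higher, and the cartilage and bone list lies mostly below, with 13 of 22 called lower.

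Secreted regulators of Wnt and BMP signals fell and rose in separate genes. Of 33 Wnt genes 6 rose and 10 fell, beside 11.7% and 10.5% of all genes. Wnt16, a ligand of bone and synovium, fell from 53.3 ± 2.39 CPM to 16.5 ± 1.64 CPM, Rspo2, which amplifies Wnt signals, from 57.6 ± 2.48 CPM to 18.3 ± 1.12 CPM, and Dkk3 from 513 ± 19.6 CPM to 206 ± 8.50 CPM. Dkk2, a Wnt antagonist, rose from 19.4 ± 0.164 CPM to 39.5 ± 2.59 CPM. The largest called rise of the Wnt list, in another gene, was 1.95 on the log2 scale. Of 29 TGF-beta, BMP and GDF genes 6 rose and 5 fell. The BMP antagonist Grem1 rose from 82.1 ± 4.24 CPM to 179 ± 9.01 CPM, and the ligand Bmp4 fell from 10.7 ± 0.264 CPM to 5.79 ± 0.613 CPM.

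In the remaining lists called genes lay on both sides or were few. Of all genes 22.2% were called, 11.7% higher and 10.5% lower. Of 16 p53 targets 4 rose and 3 fell (43.8% called), and of 18 clock genes 1 rose and 5 fell (33.3% called). Of 12 tested adipogenic genes 2 rose and 6 fell (66.7% called). The called shares of the p53, clock and adipogenic lists were above that of all genes. Of 23 integrated stress response genes 1 rose and 2 fell. No mitochondrially encoded gene of 13 was called by edgeR, DESeq2 or limma-voom, and none had an unadjusted p below 0.05.

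The same genes are set beside the other groups next. These comparisons share libraries (both differences from naive cells use the 3 naive libraries, and both differences that involve unstimulated STIA cells use the same 3 STIA libraries), so only each one's own values are given. Unstimulated STIA against naive cells gave 5550 called genes (36.8%), OPN against no stimulation in naive cells 4783 (31.7%), and OPN against no stimulation in STIA cells 327 (2.17%), with 174 higher and 153 lower. The last count was lower whichever library of these groups was left out. It was 38, 81 and 218 without STIA replicate 1, 2 or 3, and 76, 44 and 112 without OPN-treated STIA replicate 1, 2 or 3. It was 626 in DESeq2.

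The genes with the largest rises and falls in unstimulated STIA cells were chosen on those 3 libraries, a choice that by itself favours OPN-treated STIA values nearer to naive ones. Their levels are therefore given as a description, with no test of OPN-treated against unstimulated STIA cells. Cck was at 37.0, 36.8 and 34.4 CPM in unstimulated STIA libraries and, as above, at 13.9, 13.7 and 16.9 CPM in OPN-treated ones. Acta1 was at 75.1, 62.5 and 58.3 CPM without OPN and 27.0, 23.2 and 26.8 CPM with it. For both genes the unstimulated STIA libraries were the highest of the 4 groups. Htr1b was at 14.2 ± 1.10 CPM without and 7.97 ± 0.911 CPM with OPN, and Shox2 at 16.9 ± 2.28 CPM and 9.27 ± 1.15 CPM. Plac8 was at 7.38 ± 0.863 CPM and 3.10 ± 0.283 CPM, Serpinb2 at 5.34 ± 1.95 CPM and 1.88 ± 0.0644 CPM, and Mrvi1, whose exons overlap a gene on the opposite strand, at 7.40 ± 0.908 CPM and 3.74 ± 0.971 CPM.

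Among the falls, Scara5 was at 1.35, 0.873 and 2.27 CPM in unstimulated STIA libraries and 6.49, 5.50 and 5.52 CPM in OPN-treated ones. Chl1 was at 0.718 ± 0.245 CPM without and 2.95 ± 0.714 CPM with OPN, Sfrp2 at 5.08 ± 2.00 CPM and 16.3 ± 2.04 CPM, and Cdsn at 27.2 ± 4.67 CPM and 72.7 ± 3.50 CPM. Ibsp was at 0.625 ± 0.188 CPM and 0.682 ± 0.273 CPM, with the STIA groups alike in being far below naive cells. In naive cells, OPN against no stimulation moved Sfrp2 and Mest up, to 117 ± 55.2 CPM and 95.0 ± 17.2 CPM, and Scara5 and Steap4 down, to 17.0 ± 10.3 CPM and 2.17 ± 0.138 CPM.

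For immediate early genes, the difference between cells with and without OPN was not alike in naive and in STIA cells. Of 25 listed genes, OPN lowered 22 in naive cells, beside 16.5% of all genes. In STIA cells none was called by edgeR, DESeq2 or limma-voom, where edgeR called 2.17% of all genes. An unadjusted edgeR p below 0.05 was reached by 4 of the 25, beside 2187 of all 15072 genes. The lack of calls in STIA cells is thus near the share of all genes and is not particular to this list. The difference of the OPN effect itself passed edgeR's interaction test for 20 of the 25, all positive, beside 11.8% of all genes called positive. Fos was at 326, 306 and 315 CPM in naive, 25.9, 23.5 and 22.5 CPM in naive with OPN, 276, 269 and 283 CPM in STIA and 255, 281 and 231 CPM in OPN-treated STIA libraries. Naive cells with OPN stood far below the other groups, and OPN-treated STIA cells stood slightly below naive cells (log2 fold change -0.30 ± 0.09, edgeR adjusted p = 0.0191). The labels do not give the culture time of unstimulated cells, and the part of culture time or handling in these values was not tested. In the main comparison, where 11.7% of all genes rose and 10.5% fell, 6 of the 25 rose, among them Egr2 from 17.4 ± 0.714 CPM to 29.1 ± 2.90 CPM and Myc from 72.8 ± 1.94 CPM to 99.2 ± 3.56 CPM, and 5 fell.

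Glycolysis and hypoxia genes were split between the same comparisons. OPN in naive cells lowered 24 of 30 and raised 1, beside 16.5% and 15.2% of all genes. OPN in STIA cells lowered 1 and raised 3, beside 1.02% and 1.15%. The interaction test was positive for 22 and negative for 1, beside 11.8% and 10.5%. Against naive cells, 5 of the 30 were higher and 6 lower in OPN-treated STIA cells, beside 11.7% and 10.5% of all genes. Car9, the carbonic anhydrase induced by low oxygen, was at 16.8, 21.2 and 16.6 CPM in naive and 9.97, 10.3 and 8.06 CPM in OPN-treated STIA libraries (log2 fold change -0.94 ± 0.24, edgeR adjusted p = 0.012), and Hk2, a hexokinase, rose from 83.0 ± 3.55 CPM to 103 ± 0.674 CPM.

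**Figure D5:**
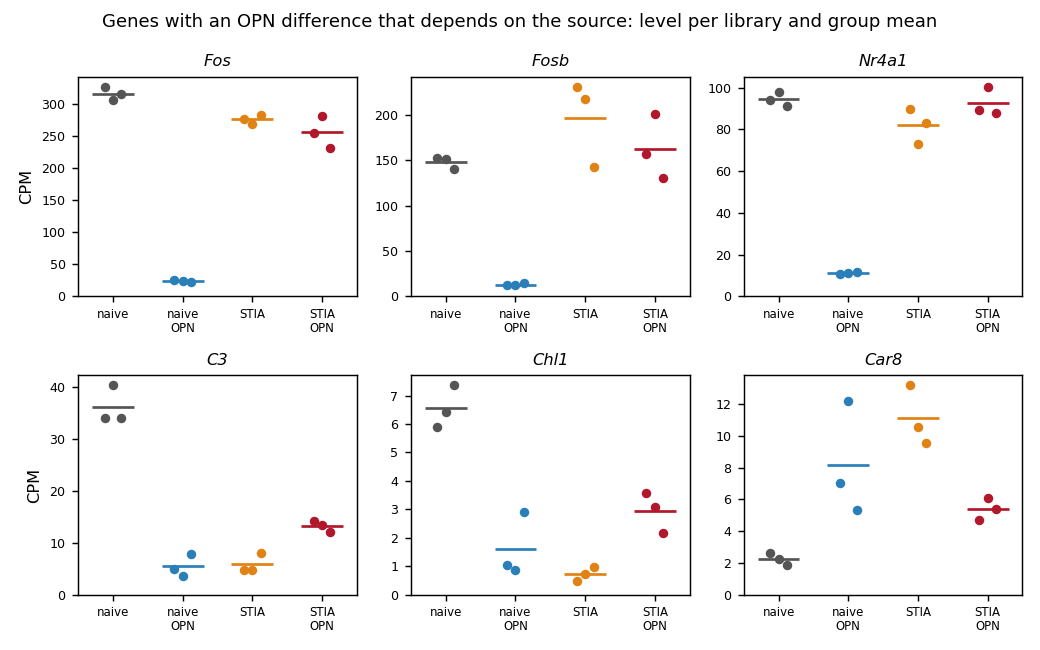
Level in CPM (linear axes from 0) of Fos, Fosb, Nr4a1, C3, Chl1 and Car8 in the 4 groups, 1 point per library and a bar at each group mean. Fos, Fosb and Nr4a1 are low in the 3 libraries of naive cells with OPN and high in the other 9, and Car8 is lowest in naive cells.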

How the data were processed

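RNA from sorted paw fibroblasts was sequenced in paired reads, per the labels. The deposited values are raw gene counts, made by the authors with STAR and featureCounts on GRCm38 (mm10), per the submitters' processing notes. Tool versions, the annotation, strandedness and the counting of multi-mapping reads were not given in the sources used here. Of 32285 identifiers 32158 had a symbol, and the 127 without one held 0.029% of counts. Where a symbol had several identifiers (26 symbols), the identifier with most counts kept the symbol. Gene positions are those of the deposited table and promoters those of RefSeq.

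Counts were fitted in R 4.3.3 with edgeR 4.0.16 (filterByExpr, TMM, robust quasi-likelihood, 1 mean per group) over all 18 libraries, with 12 residual degrees of freedom and a biological coefficient of variation of 7.99%. The test was two-sided, and a Benjamini-Hochberg adjusted p below 0.05 over all 15072 genes made a call. Levels are CPM on TMM-scaled totals, and standard errors are fold changes (log2) over the root of F. Steps were tested on simulated data. DESeq2 1.42.0, limma-voom 3.58.1, other scalings and filters, the replicate block, smaller sets of libraries and leaving out each library were alternatives. The 34 gene lists, the members and the naming rule were chosen with earlier results of these data known. The rule took the 14 largest called rises and 14 largest falls with a mean of at least 5 CPM in the higher group and no overlap of libraries, which 2803 genes (18.6%) met, leaving out predicted genes. It also took the 8 largest rises and 8 largest falls in unstimulated STIA cells by the same conditions, the 6 largest positive and 6 largest negative interactions, and list members, as examples.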

Additional observations from a re-analysis of the deposited data

Results flagged for a closer look

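These 12 genes were picked out because the effect of OPN differed between STIA and naive cells by edgeR's interaction test. Each value is the OPN effect in STIA cells minus that in naive cells, on the log2 scale, and 3364 of 15072 genes (22.3%) passed this test. Among the positive ones, the adhesion molecule Chl1 had a difference of 4.15 ± 0.52 (SE) and edgeR adjusted p = 3.35e-05, and OPN changed it by -2.09 in naive and 2.06 in STIA cells. Complement C3 had a difference of 3.95 ± 0.46 and the haemoglobin scavenger Hp of 3.30 ± 0.30. The immediate early genes Fos, Nr4a1 and Fosb had differences of 3.61 ± 0.13, 3.27 ± 0.22 and 3.25 ± 0.38. Fos was lowered by OPN in naive cells (-3.72), and its change in STIA cells (-0.11) did not pass the test.

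Among the negative ones, the neuropeptide receptor Adcyap1r1 had a difference of -3.35 ± 0.69 (edgeR adjusted p = 0.00348) and Cck of -3.32 ± 0.36, with OPN changing Cck by 2.04 in naive and -1.28 in STIA cells. The non-coding RNA Bc1 had a difference of -3.14 ± 0.50, the protease inhibitors Serpinb2 and Serpinb9b of -3.01 ± 0.72 and -2.94 ± 0.31, and the carbonic anhydrase-related gene Car8 of -2.92 ± 0.39. Serpinb2 rested on low levels, with 0.598 ± 0.154 CPM in naive and 1.88 ± 0.0644 CPM in OPN-treated STIA cells. Exons of Serpinb9b overlap a predicted gene on the opposite strand.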

How the results depend on the processing

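The count of 3343 genes between OPN-treated STIA and naive cells was 3351 with RLE scaling, 3261 with library totals, 3586 in DESeq2, 3306 in limma-voom, 3438 without the low-count filter, 3338 with at least 10 counts in 3 libraries, 4119 when only the 6 libraries were fitted and 4074 with 12. Leaving out each library in turn gave 2282 to 2769. The 28 genes named for this comparison kept their direction and stayed past the threshold in all 420 values over 15 alternatives. They were chosen as the largest called changes without overlap in these same libraries. The choice largely fixed that outcome, so it is no separate sign of stability. List counts were recomputed for 9 lists in 1 direction each (contractile, replication, ERK, osteopontin receptor and cholesterol genes higher; cartilage and bone, complement, interferon and sublining genes lower), and not for the other lists. Of these 135 values, 134 stayed within 1.5 times the reported count. The exception was the cholesterol list, with 11 risen members, and 6 to 10 over the libraries left out in turn. The 327 genes between OPN-treated and unstimulated STIA cells were the least stable count, with 626 in DESeq2, 948 without the low-count filter and 38 to 218 when a library was left out. The cause was not tested.

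Over 45 same-numbered pairs, the correlation of deviations from group means was -0.104 to 0.199, with 2 above 0.1. In the 3 pairs of the main groups it was -0.041 to 0.0092. The share of mitochondrially encoded counts was lowest in replicate 3 of the naive (0.374%), STIA (0.383%) and OPN-treated STIA (0.468%) groups. Replicate 3 was also lowest in naive cells with FGF2 (0.477%) and with FGF2 and OPN (0.455%). In naive cells with OPN it was lowest in replicate 1 (0.601%). Whether same-numbered libraries shared a mouse or a batch was not tested. With the replicate block the counts were 3196 for OPN-treated STIA against naive, 5409 for STIA against naive, 4601 for OPN in naive, 292 for OPN in STIA and 3225 for the interaction.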

Other observations

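Hox genes of the C cluster (chr15), which pattern the body axis and the limbs, were chosen after their values were seen. Of 7 tested members 5 rose in OPN-treated STIA against naive cells, beside 11.7% of all genes, with a list median of 1.26 on the log2 scale. They were Hoxc9, Hoxc10, Hoxc11, Hoxc12 and Hoxc13. Hoxc9 and Hoxc12 rested on low levels, at 0.286 ± 0.203 CPM and 0.152 ± 0.132 CPM in naive cells. In OPN-treated STIA cells they were at 0.878 ± 0.184 CPM and 0.558 ± 0.0328 CPM. Hoxc13 was at 1.80, 1.88 and 1.91 CPM in naive, 2.24, 3.35 and 2.54 CPM in naive with OPN, 10.8, 12.2 and 8.49 CPM in STIA and 4.80, 5.53 and 6.90 CPM in OPN-treated STIA libraries. Hoxc10 rose from 3.20 ± 0.653 CPM to 6.63 ± 0.501 CPM and Hoxc11 from 1.77 ± 0.375 CPM to 4.21 ± 0.762 CPM. In the D cluster (chr2), 3 of 7 tested genes fell, beside 10.5% of all genes, namely Hoxd11, Hoxd12 and Hoxd13. Hoxd13, the most abundant of them, fell from 97.9 ± 5.68 CPM to 73.2 ± 6.77 CPM and Hoxd12 from 9.54 ± 0.251 CPM to 4.71 ± 0.514 CPM. None of the 11 tested genes of the A cluster was called by edgeR, and their median was -0.13. The hindlimb genes Pitx1 and Tbx4 fell by small amounts, with log2 fold changes of -0.35 ± 0.082 and -0.37 ± 0.083. The labels do not say which paws went into each library, and the part of tissue origin in these values was not tested.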
